A study of Bos taurus with 16 samples.

Results

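The transcripts of serum amyloid A and of other acute phase proteins were followed in 2 tissues of 8 dairy cows, the endometrium and circulating white blood cells (WBC). The genes were SAA3, M-SAA3.2, SAA1, SAA4, HP, LBP, CP, ITIH4, ORM1 and AHSG, and every probe that carried 1 of these 10 names on the array was taken, which gave 36 probes of 46615. The animals were multiparous Holstein-Friesian cows sampled between days 45 and 55 post-partum, of which cows 718, 833, 836 and 846 had subclinical endometritis (SCE) and cows 841, 850, 877 and 883 were healthy. No cow showed clinical signs, SCE status was set from the histology of the uterus, and no agent was given to either group. Each cow gave 1 endometrial biopsy and 1 blood sample preserved in a PAXgene tube, so that the 4 groups (endometrium or WBC, SCE or healthy) held 4 arrays each. A biopsy is a mixture of epithelium, stroma and resident or infiltrating leukocytes, and the WBC sample holds all leukocyte types of blood. The stage of the estrous cycle differed among the cows and is not given per cow in the labels. According to the paper, most of the SCE cows on the arrays were in the luteal phase, whereas the healthy cows were split evenly. The paper also reports, from RT-qPCR in healthy cows, a significant effect of the phase on several endometrial transcripts, SAA3 among them. The part of the estrous cycle in the results was not tested.

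The acute phase response is the change in plasma proteins that follows infection or injury. In its classical form, cytokines such as interleukin 6, interleukin 1 and tumor necrosis factor act on hepatocytes, which raise the secretion of positive acute phase proteins and lower that of negative ones. Serum amyloid A proteins are small apolipoproteins that travel with high density lipoprotein, and in cattle SAA3 and its mammary form M-SAA3.2 are known for synthesis outside the liver, in epithelia among other tissues, whereas SAA1 belongs to the family members associated with the liver and SAA4 is made constitutively. Haptoglobin (HP) binds free hemoglobin, LBP hands bacterial lipopolysaccharide to CD14, ceruloplasmin (CP) carries copper and oxidises iron, ITIH4 is a heavy chain of the inter-alpha-trypsin inhibitor family, ORM1 is alpha-1-acid glycoprotein and AHSG (fetuin-A) is a negative acute phase protein.

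The probes of SAA3, M-SAA3.2 and SAA1 lay close together on chromosome 29, and parts of their sequences were shared. Positions are those in the scanner files, whose header names the build Btau_3.1, while the submitters' design text names UMD3.1 for the transcripts. Probes are numbered within a gene by their mean level over the 16 arrays. SAA3 probe 1 lay at chr29:27684334-27684393 on the minus strand, SAA1 probe 1 at chr29:27730004-27730063 and SAA1 probe 2 at chr29:27729776-27729835 on the plus strand, and the M-SAA3.2 probe at chr29:27773620-27773683 on the plus strand. SAA3 probe 3 and probe 4 were placed at chr29:27684557-27685004 and chr29:27684560-27685007, each span being longer than its 60 bases. The 4 probes below are shown because 3 genes shared a run of 21 bases, in capitals, which no other member probe held, so that transcripts of these genes may share signal and their levels are uncertain as values of 1 gene.
SAA3 probe 4: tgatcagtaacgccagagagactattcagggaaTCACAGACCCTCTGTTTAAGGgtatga
SAA3 probe 3: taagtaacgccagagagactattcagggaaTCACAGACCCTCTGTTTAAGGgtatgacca
M-SAA3.2 probe: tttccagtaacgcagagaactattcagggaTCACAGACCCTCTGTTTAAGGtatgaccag
SAA1 probe 2: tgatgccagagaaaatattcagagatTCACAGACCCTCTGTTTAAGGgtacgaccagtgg

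The first probes of SAA3 and SAA1 overlapped by 52 bases and differed at 2 of them. A window of 30 bases holds both differences, in capitals, and is shown because these few bases are where the overlapping parts of the brightest SAA3 and SAA1 probes differ.
SAA3 probe 1: aaggCagcagatctaataaatgctCaagag
SAA1 probe 1: aaggAagcagatctaataaatgctTaagag
Counted from 1 at the 5′ end of this window, with the SAA3 base first, the substitutions were C5A and C25T. The RefSeq gene table gave the accession of these SAA1 probes the symbol SAA2, with SAA1 as a synonym, and the name on the array is kept here.

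SAA3 probe 5 and probe 6 shared a run of 47 bases, in capitals, and were placed on the strand opposite to the neighbouring serum amyloid A probes, probe 5 at chr29:27685076-27685135 on the plus strand and probe 6 at chr29:27772750-27773150 on the minus strand. They are shown because their level in WBC differed from that of the other SAA3 probes.
SAA3 probe 5: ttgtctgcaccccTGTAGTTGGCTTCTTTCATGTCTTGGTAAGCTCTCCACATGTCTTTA
SAA3 probe 6: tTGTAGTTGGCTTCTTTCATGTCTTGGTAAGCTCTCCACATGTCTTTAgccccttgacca

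Levels are log2 spot intensities, quantile-normalized over the 16 arrays, so that a difference of 1 is a doubling of signal. The median spot lay 79 to 316 units above its local background, and 64.7% to 79.8% of spots per array were marked well above background by the scanner software. The endometrium array of SCE cow 833 was the dimmest of its slide, at 79 units against 248 to 316 on the other 7. The 8 endometrium arrays shared 1 slide and the 8 WBC arrays the other, and tissue therefore cannot be told apart from slide. Among the member probes, 16 were well above background on all 8 endometrium arrays, 10 on all 8 WBC arrays and 6 on all 16, while 7 were so on no array and 6 on only 1 or 2. No member spot was saturated or left out. The number of arrays, 4 in each group, limits the precision, and p-values measure the spread between cows.

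In the endometrium, 9 probes of SAA3, SAA1 and M-SAA3.2 were higher in SCE cows than in healthy cows by 1.78 to 2.81 on the log2 scale, a 3.43-fold to 6.996-fold difference, before adjustment for multiple testing. They were 9 of the 36 member probes and 3 of the 10 genes, and no member probe was lower. Of all 46598 probes, 0.453% passed the same threshold (limma's TREAT test against a 1.2-fold change, unadjusted p at or below 0.05). Those that passed in the higher direction were 0.258% of all probes. After Benjamini-Hochberg adjustment over all probes 0 of 36 passed, as did 0% of all probes, and the smallest adjusted TREAT p was 1. The median difference over the 36 probes was 0.27, against -0.0046 over all probes tested. Several of these probes share sequence and all were read on the same 8 arrays, so that they are not separate observations.

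SAA3, which encodes the serum amyloid A form made in tissues outside the liver, read 16.98, 16.22, 18.07 and 16.40 on probe 1 in the endometrium of SCE cows 718, 833, 836 and 846. In healthy cows 841, 850, 877 and 883 the levels were 13.17, 12.66, 14.51 and 17.54. Healthy cow 883 thus lay among the SCE cows, above 3 of them, while the other 3 healthy cows lay below every SCE cow. The mean of the SCE cows was 16.92 ± 0.84 (SD, n = 4), and that of the healthy cows 14.47 ± 2.19 (SD, n = 4). The difference was 2.45 (standard error 1.0, 95% confidence interval 0.15 to 4.74), or 5.45-fold, with an unadjusted TREAT p of 0.0426 in limma. Because the groups overlapped, the two-sided exact permutation test over cows gave p = 0.114, where 0.029 is the smallest p that 4 against 4 allows. In bulk tissue, fewer cells that express a gene and less of its RNA per cell cannot be told apart.

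SAA1 probe 1 read 16.91, 16.12, 17.96 and 16.35 in the endometrium of the SCE cows, in the same order, and 13.16, 12.58, 14.30 and 17.31 in that of the healthy cows. The order of the cows was that of SAA3 probe 1, with cow 883 again second. The difference was 2.50 (standard error 0.96, unadjusted TREAT p of 0.0339 in limma). M-SAA3.2, the mammary form, read 14.95, 13.98, 15.91 and 14.00 in SCE cows and 10.58, 10.06, 11.67 and 15.31 in healthy cows. It differed by 2.81 (standard error 1.08, unadjusted TREAT p of 0.0331 in limma), with the same 3 healthy cows at the bottom.

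**Figure D1:**
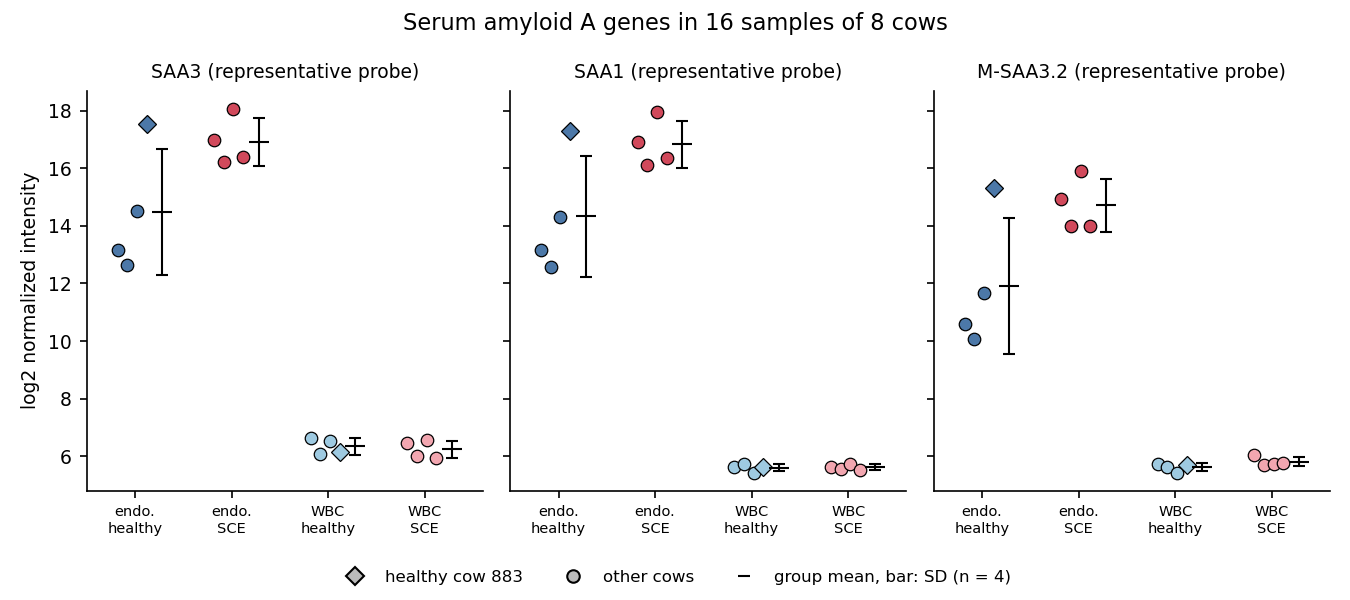
Log2 normalized intensity (y axis) of SAA3, SAA1 and M-SAA3.2, 1 probe a gene, in the 4 groups of 4 cows (x axis). Each point is 1 cow and the bar is the group mean with its SD. In the endometrium the 4 SCE cows and healthy cow 883, which is marked, lie above the other 3 healthy cows, and all WBC points lie lower, between 5.43 and 6.65.

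The same split ran through the whole set of bright serum amyloid A probes. Cow 836 ranked first and cow 883 second of 8 cows on all 9 probes, and cows 877, 841 and 850 were the 3 lowest. The gap between the highest of these 3 and the lowest of the other 5 cows was 1.64 to 2.40, within a full range over the 8 cows of 3.46 to 5.89. Cow 883 lay 2.67 to 4.54 above the mean of the other 3 healthy cows. Across the 8 endometrium arrays, Pearson's r between the 36 pairs of these probes was 0.986 to 0.999, given as a description since the probes share arrays and partly sequence. The SD among healthy cows was 1.398 to 2.36, and that among SCE cows 0.33 to 0.99.

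Markers of the cell types of the biopsy were read on the same arrays. Of 8 epithelium markers 7 had a difference above 0 between SCE and healthy endometrium (list median 0.18), of 7 stroma markers 0 had (median -0.39), and of 6 T cell markers 6 had (median 0.33), with none past unadjusted TREAT in limma. Of 9 neutrophil markers 8 had (median 0.20), and S100A8, a calcium-binding protein of neutrophils, passed with 1.60 (unadjusted TREAT p of 0.0359), where 0.497% of all genes passed. The summed epithelium level was 15.24 to 16.42 in SCE cows and 15.18 to 16.09 in healthy cows. The summed stroma level was 17.93 to 19.28 and 18.59 to 18.82, so that both overlapped. In WBC the epithelium sum was 15.37 to 16.55 and 15.75 to 16.66, and the stroma sum 18.06 to 18.30 and 17.94 to 18.23. The sums therefore do not read epithelium or stroma alone. The keratin KRT19 read 14.08 to 16.07 in endometrium and 14.92 to 16.47 in WBC. Vimentin (VIM) read 16.62 to 17.92 and 17.81 to 18.21. Cow 833 had the highest epithelium sum, with KRT19 at 16.07 but the adhesion protein EPCAM at 10.20. KRT18, an epithelial keratin, was highest in cow 836 (14.41), followed by cow 718 (13.73) and healthy cow 883 (13.48), and was 10.48 to 12.48 in the other 3 healthy cows. MUC1, an epithelial mucin, was highest in cow 883 at 13.34, whereas EPCAM, an epithelial adhesion protein, was highest at 14.55 in healthy cow 841, one of the cows lowest for serum amyloid A. All 8 epithelium and 7 stroma markers were well above background on all 8 endometrium arrays. The part of these cell types in the serum amyloid A levels was not tested.

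**Figure D2:**
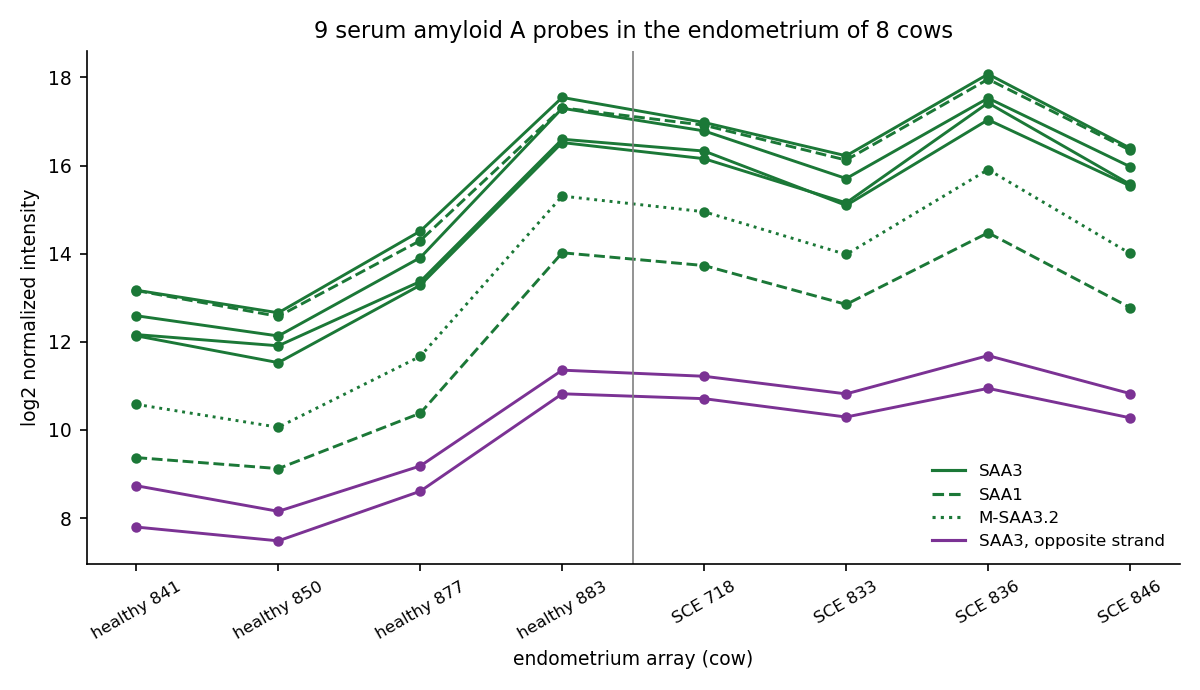
Log2 normalized intensity (y axis) of the 9 serum amyloid A probes on the 8 endometrium arrays (x axis, 1 array per cow). Each line is 1 probe, and on all 9 lines cow 836 is the highest, cow 883 the next, and cows 877, 841 and 850 are the lowest.

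The SCE difference of these 9 probes depended on which cows were in the fit. Without SCE cow 718, SCE cow 836, or healthy cow 841, 850 or 877, 0 of 9 probes passed unadjusted TREAT in limma, and 0 passed after adjustment. Without SCE cow 833, whose array was the dimmest, 7 passed, and without SCE cow 846, 6 passed. Without healthy cow 883 all 9 passed, with differences of 2.45 to 3.94 and unadjusted TREAT p of 5.88e-05 to 0.000473, but with adjusted p of 1. The differences stayed above 0 in each of these fits, between 1.38 and 3.94.

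**Figure D3:**
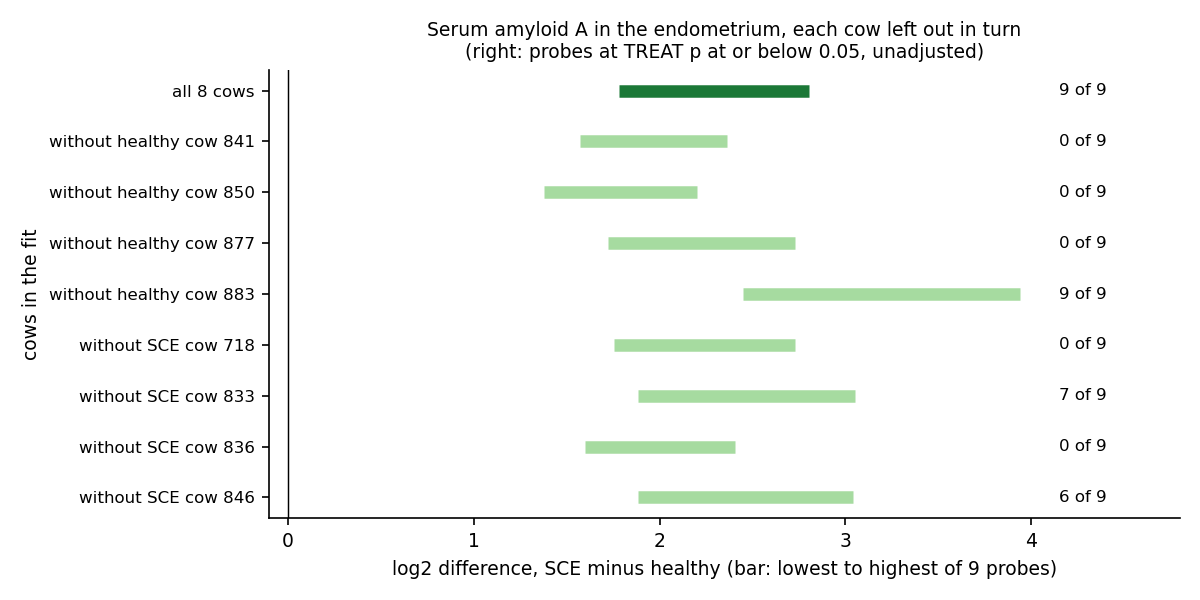
Log2 difference between SCE and healthy endometrium (x axis) of the 9 serum amyloid A probes with all 8 cows and with each cow left out in turn (y axis). Bars run from the lowest to the highest of the 9 probes. The number at the right counts the probes past unadjusted TREAT, which is 9 with all cows and without cow 883, and 0 without cow 718, 836, 841, 850 or 877.

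In WBC none of the serum amyloid A genes differed detectably between SCE and healthy cows. The SAA3 probes differed by -0.16 to 0.14, the M-SAA3.2 probe by 0.18 and the SAA1 probes by -0.16 to 0.02, with adjusted TREAT p of 1 in limma. SAA3 probe 1 read 5.94 to 6.55 in SCE cows and 6.06 to 6.65 in healthy cows, and was well above background on 1 and 2 of the 4 arrays. The SAA3 probes 2 to 4, the M-SAA3.2 probe and the SAA1 probes 1 and 2 were well above background on no WBC array. Over the 36 member probes, limma called 0 in WBC, adjusted or not, where 0.122% of all probes passed unadjusted and 0% adjusted, and the median difference was -0.04, against -0.0066 over all probes.

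The SCE effect in the endometrium minus that in WBC was above 0 by 1.64 to 2.90 on 8 member probes, all of serum amyloid A, at unadjusted TREAT p of 0.0195 to 0.0419. No member probe was below 0 at that threshold. Over all probes 0.496% passed, and those that passed above 0 were 0.245% of all probes. After adjustment in limma 0 of 36 member probes passed, with a smallest adjusted TREAT p of 1. The ninth bright probe, SAA3 probe 2, gave 2.41 with an unadjusted TREAT p of 0.0512. Without cow 841 or 850 the count of member probes fell to 0, and without cow 836 to 1, an LBP probe. Without cow 718 or 877 it fell to 4, with AHSG probe 1 among them each time and the rest of SAA1 and SAA3.

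Between tissues, serum amyloid A was far higher in endometrium than in WBC. SAA1 probe 1 was at least 429-fold higher in healthy cows and at least 2384-fold higher in SCE cows, a lower bound because no WBC array had this probe well above background. By the same measure SAA3 probe 2 was at least 347-fold and 1873-fold higher, and M-SAA3.2 at least 77.8-fold and 480-fold. The bounds in healthy cows depended on single cows. Without cow 883 they were 216-fold for SAA1 probe 1, 161-fold for SAA3 probe 2 and 36.1-fold for M-SAA3.2, and without cow 850 they were 665-fold, 544-fold and 119-fold. SAA3 probe 1 differed by 8.13 (standard error 0.75) in healthy cows and by 10.68 (standard error 0.75) in SCE cows, with adjusted TREAT p of 3.09e-07 and 1.41e-08 in limma. In both statuses every endometrium array was above every WBC array on the 7 probes other than SAA3 probes 5 and 6, including those of the 3 healthy cows with the lowest endometrial levels.

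The probes on the opposite strand behaved otherwise in WBC. SAA3 probe 5 read 7.90 to 9.10 and probe 6 read 6.63 to 7.48, well above background on all 8 WBC arrays. In healthy cows, probe 5 differed between tissues by 1.12 (standard error 0.49, adjusted TREAT p of 0.112 in limma), with overlapping groups, and probe 6 by 1.61 (standard error 0.52, adjusted TREAT p of 0.0265). The call of probe 6 was lost without cow 877 or 883, with adjusted TREAT p of 0.0958 and 0.0995, and probe 5 passed with each tissue normalized separately (2.04, adjusted TREAT p of 0.00387). In SCE cows they differed by 2.76 and 3.603, and the tissues did not overlap. In the endometrium the order of the cows on probe 5 was that of SAA3 probe 1, and on probe 6 that of SAA1 probe 2, which differs from it only in the exchange of cows 833 and 846. SAA3 probe 7, which has no position in the files, read 5.58 to 6.26 everywhere and was well above background on 2 endometrium arrays and no WBC array.

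Over all members, the tissue comparison in healthy cows called 13 probes higher and 8 lower in endometrium by adjusted TREAT in limma, where 46.5% of all probes were called, 19.7% higher and 26.8% lower. In SCE cows 13 were higher and 5 lower, against 45.3% of all probes, 19.3% higher and 26% lower. The groups did not overlap for 21 and 19 member probes, against 59.8% and 45.9% of all probes. The member medians were 0.20 in both statuses, against -0.15 and -0.16 over all probes. The scaling matters here: with each tissue normalized separately the medians of all probes were 0.36 and 0.36, with the processed signal -0.46 and -0.36 (healthy and SCE cows), and the share of all calls that were higher in endometrium rose from 42.3% to 80.3% in healthy cows and from 42.6% to 80.9% in SCE cows under separate normalization. Higher calls of SAA3, M-SAA3.2, SAA1, CP and ITIH4 and lower calls of HP were made under both scalings, whereas the lower calls of SAA4, ORM1, AHSG, SAA1 probe 3 and ITIH4 probe 2 were made only when both tissues were normalized together.

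SAA4, the constitutive serum amyloid A, did not share the endometrial pattern. Its probe 1, at chr29:27752531-27752590, read 5.73 to 5.97 in endometrium, where it was well above background on no array, and 6.49 to 6.94 in WBC, where it was so on 7 of 8. With both tissues normalized together it was at least 1.88-fold lower in the endometrium of healthy cows and at least 1.73-fold lower in that of SCE cows (adjusted TREAT p of 0.000202 and 0.00117 in limma). These bounds hold for that scaling only. With each tissue normalized separately the differences were -0.42 and -0.28 on the log2 scale (adjusted TREAT p of 0.19 and 0.631). SCE and healthy cows differed by 0.08 in endometrium and by -0.05 in WBC, with overlapping groups. SAA4 probe 2 was well above background on no array. SAA1 probe 3, which has no position in the files and shared at most 6 bases in a row with the other serum amyloid A probes, likewise read higher in WBC (6.79 to 7.25) than in endometrium (6.29 to 6.69).

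HP, the hemoglobin-binding protein also stored by neutrophils, showed the opposite tissue order to SAA3. Probe 1 read 11.55, 12.24, 13.47 and 12.52 in the WBC of the SCE cows, in the order given above, and 10.94, 12.69, 13.62 and 12.56 in those of the healthy cows. The groups covered the same range, and the difference was -0.01 (standard error 0.55, 95% confidence interval -1.23 to 1.21, adjusted TREAT p of 1 in limma). In endometrium it read 9.31, 6.02, 5.89 and 6.55 in SCE cows and 5.58 to 5.80 in healthy cows. It was at least 108-fold lower in endometrium than in WBC in healthy cows (adjusted TREAT p of 6.66e-07 in limma). In SCE cows, where 2 of 4 endometrium arrays were well above background for it, the difference was -5.50 (adjusted TREAT p of 6.8e-06), with -6.59 without cow 718 and -4.81 without cow 836.

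The endometrial HP of cow 718 stood apart. It lay 3.42 above the mean of the other 7 cows on probe 1, was 8.82 on probe 2 where the others read 5.55 to 5.88, and 8.04 on probe 3 where the others read 5.68 to 6.77. Its own WBC were still 2.24 higher on probe 1. Without this cow the SCE difference on probe 1 went from 1.25 to 0.46. On probe 1 the 4 SCE cows lay above the 4 healthy cows (difference 1.25 with a standard error of 0.69, and p = 0.0286 in the two-sided exact permutation test), but limma's unadjusted TREAT p was 0.123, only 2 of the 4 SCE arrays and no healthy array were well above background, and the groups overlapped on probes 2 and 3. The same biopsy had the highest summed level of the monocyte and macrophage markers among the 8 endometrium arrays, 15.24 against 13.06 to 14.68, while its neutrophil sum was 12.32 against 11.43 to 13.11. The sum is led by C1QA, and C1QA, C1QB, CD68 and CSF1R were highest in cow 718. Not all macrophage genes were: VSIG4 was highest in healthy cow 877, at 9.03 against 8.69 in cow 718. The receptor CD163 was highest in cow 833, at 7.65 against 6.20 in cow 718. IL6, a cytokine that induces acute phase genes, read 8.60 in the biopsy of cow 718 against 5.44 to 6.96 in the others. The part of these cells and of IL6 in the HP value was not tested.

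LBP, the carrier of bacterial lipopolysaccharide, was measured in both tissues. Probe 1, at chr13:67836486-67836545, read 11.13, 13.38, 10.05 and 10.70 in the endometrium of SCE cows and 10.44 to 11.07 in that of healthy cows, against 10.18 to 11.53 in WBC. Apart from cow 833, the groups covered nearly the same levels in both tissues on this probe. The other LBP probes were dimmer in WBC. Probe 2 read 6.23 to 7.22 there and was well above background on 6 of 8 arrays, and probes 3 to 5 on no WBC array. The WBC level of LBP therefore rests mainly on probe 1, and which probe reads the LBP transcript of WBC was not tested. Cow 833 had the highest endometrial value on all 5 LBP probes, with 9.62 on probe 3 where the other cows read 5.26 to 6.81, and 8.08 on probe 4 where they read 5.31 to 6.21. Without this cow the difference on probe 1 went from 0.52 (standard error 0.63, unadjusted TREAT p of 0.471 in limma) to -0.17. Probe 4, at chr13:67836330-67836389, was the LBP probe with no overlap between SCE and healthy endometrium (difference 1.16, standard error 0.47, unadjusted TREAT p of 0.0516, and p = 0.0286 in the two-sided exact permutation test), although it was well above background only in cow 833. Its unadjusted TREAT p was 0.0492 with slide row as a blocking factor, 0.0375 with each tissue normalized separately and 0.0117 with all 16 arrays in 1 fit, and 0.0495, 0.0165 and 0.0221 without cow 718, 833 or 836. Of 36 member probes 3 had no such overlap, all higher in SCE cows, namely HP probe 1, LBP probe 4 and AHSG probe 1, where 1.76% of all probes had none and 0.79% had none and were higher in SCE cows.

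The array of cow 833 was also the dimmest of the endometrium arrays, as given above, and its biopsy had the highest summed level of the neutrophil markers, 13.11 against 11.43 to 12.54 in the other 7. The sum is led by S100A12, which read 12.31 in this cow and 9.95 to 11.29 in the others, and S100A8, S100A9, ELANE and MMP9 were also highest in it, S100A8 at 10.45 against 6.31 to 8.16. The list did not move as one: MPO, a granule enzyme of neutrophils, was lowest in cow 833 at 9.19 against 9.82 to 11.67, as was the receptor CXCR1, and CXCR2 and CSF3R, receptors of neutrophils, were higher in cow 718 than in cow 833. All 9 neutrophil markers were matched on the array, 5 of them were well above background on all 8 endometrium arrays and 1 on none. The part of brightness and of neutrophils in the LBP values of this cow was not tested. For healthy cow 883, whose serum amyloid A was high, the neutrophil sum was 11.72 and S100A8, at 6.31, was the lowest of the 8 cows.

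CP, which carries copper and oxidises iron, was another member with a clear endometrial level. Its probe 1, at chr1:120914272-120914331, read 9.98, 11.67, 9.23 and 9.68 in SCE cows and 10.60, 10.39, 10.09 and 8.87 in healthy cows, and 5.33 to 6.17 in WBC, where it was well above background on no array. Endometrium was above WBC in every cow, by at least 17.0-fold to 19.3-fold in healthy cows and at least 14.3-fold to 21.9-fold in SCE cows over the probes 1 to 3. SCE and healthy endometrium differed by -0.17 to 0.15 over the 4 CP probes (unadjusted TREAT p of 0.698 to 0.837 in limma), less than the spread between cows. Cow 833 was again the highest on probes 1 and 2, and healthy cow 883, high for serum amyloid A, was the lowest on probes 1 to 4.

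ITIH4, the inter-alpha-trypsin inhibitor chain, gave different answers on its 2 probes. Probe 1, at chr22:49121118-49121177, read 12.04, 10.92, 9.33 and 12.31 in the endometrium of SCE cows and 10.90, 12.16, 11.69 and 12.46 in that of healthy cows, and 6.99 to 7.58 in WBC. It was higher in endometrium by 4.57 (standard error 0.49) in healthy cows and by 3.89 (standard error 0.49) in SCE cows, with adjusted TREAT p of 1.98e-06 and 1.22e-05 in limma. Probe 2, at chr22:49107468-49107527, was lower in endometrium in healthy cows by -1.41 (adjusted TREAT p of 0.00926), a call lost without cow 841 (-1.24, adjusted TREAT p of 0.0569). In SCE cows its difference of -0.98 did not pass (adjusted TREAT p of 0.0719), cow 833, at 9.44, lay above the WBC values of all SCE cows, 8.27 to 9.34, and without this cow the difference was -1.70 (adjusted TREAT p of 3.05e-06). SCE and healthy endometrium overlapped on both probes, with differences of -0.65 and 0.39, and that of probe 1 was -0.044 without cow 836 and -1.04 without cow 846. Which of the probes reads the ITIH4 transcript of these tissues was not tested.

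ORM1 and AHSG, secreted mainly by the liver, were low in both tissues. ORM1 probe 1, on chromosome 8, read 6.20 to 7.36 in endometrium and 7.13 to 8.16 in WBC and was lower in the endometrium of healthy cows by -0.996 (adjusted TREAT p of 0.02 in limma), a call lost without cow 841 (-0.74, adjusted TREAT p of 0.143) or 883 (-0.75, adjusted TREAT p of 0.14). In SCE cows the difference was -0.78, with an adjusted TREAT p of 0.0786. ORM1 probe 2 had lower levels in the WBC of every SCE cow, 5.87 to 5.98, than of every healthy cow, 6.01 to 6.39, the only member probe with no overlap in WBC, where 1.38% of all probes had none and 0.76% had none and were lower in SCE cows, but it was well above background on no array. The 7 AHSG probes, on chromosome 1, read 5.09 to 6.55 on all 16 arrays, and 4 of them were well above background on no array. AHSG probe 1 was higher in SCE than in healthy endometrium by 0.43 (standard error 0.14, unadjusted TREAT p of 0.135 in limma, and p = 0.0286 in the two-sided exact permutation test), between arrays none of which was well above background for it.

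**Figure D4:**
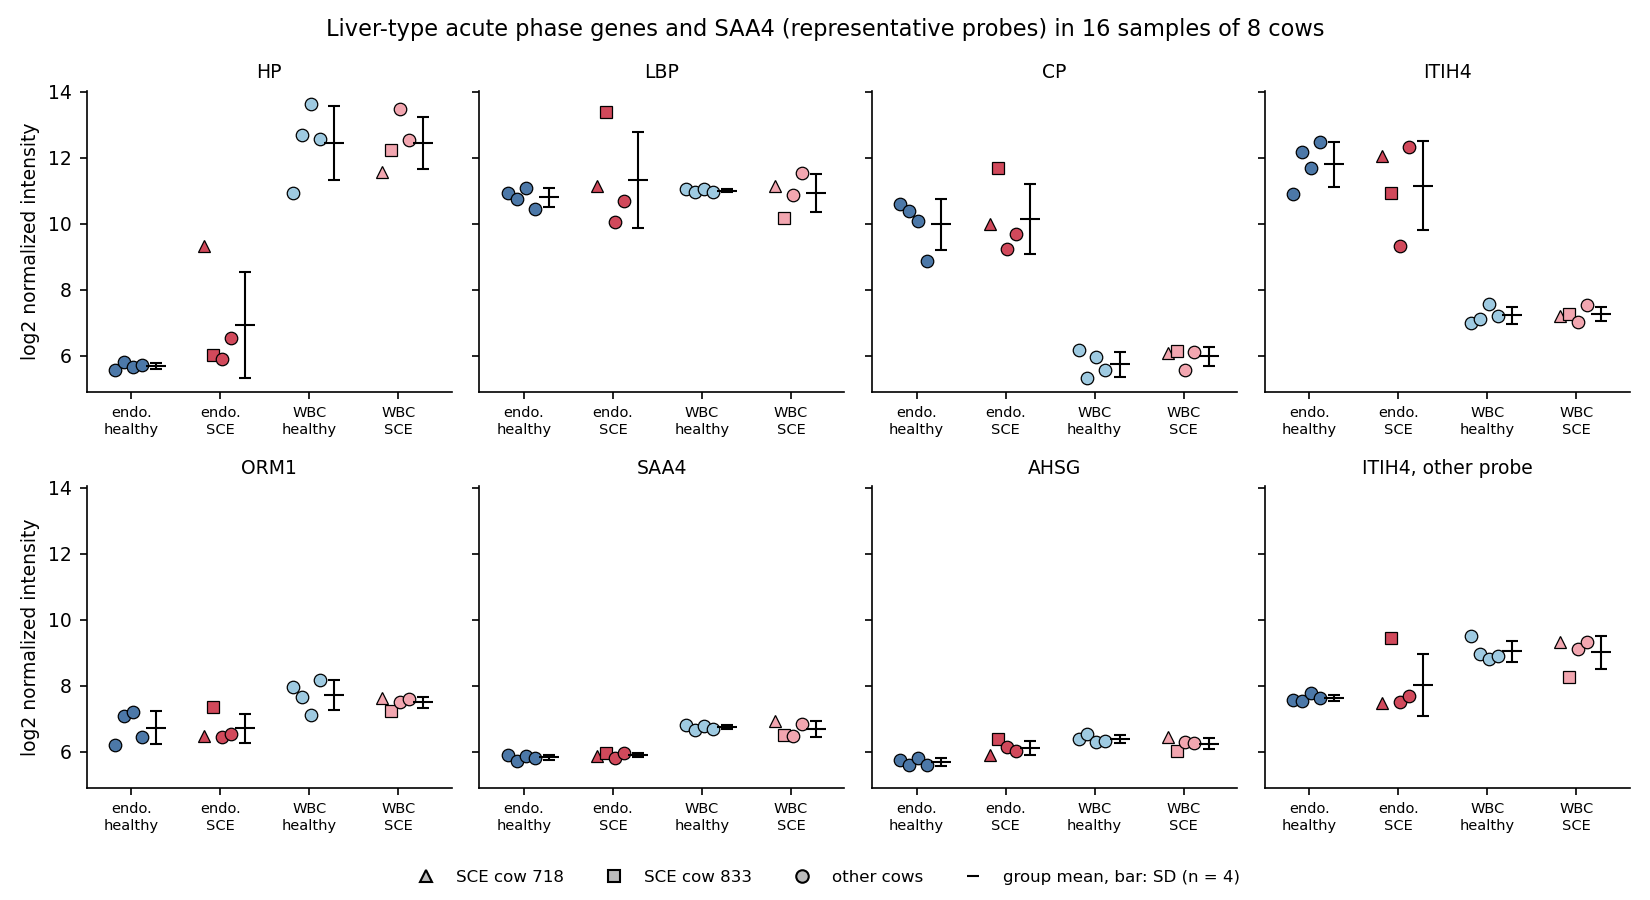
Log2 normalized intensity (y axis, the same scale in all panels) of SAA4, HP, LBP, CP, ORM1, AHSG and ITIH4 by 1 probe each, and of the other ITIH4 probe, in the 4 groups of 4 cows (x axis). Points are cows and bars are group means with their SD. Cows 718 and 833 are marked: cow 718 is the high point of HP in endometrium and cow 833 that of LBP and of the second ITIH4 probe.

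Of the 13 serum amyloid A probes 9 passed unadjusted TREAT in SCE endometrium, and of the 23 probes of HP, LBP, CP, ORM1, AHSG and ITIH4 none passed in limma, with differences from -0.65 to 1.32. With 0.453% of all probes past the same threshold, a count of 0 in 23 lies near the share over all probes. In WBC those 23 probes differed by -0.32 to 0.28 and none passed, where 0.122% of all probes did.

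**Figure D5:**
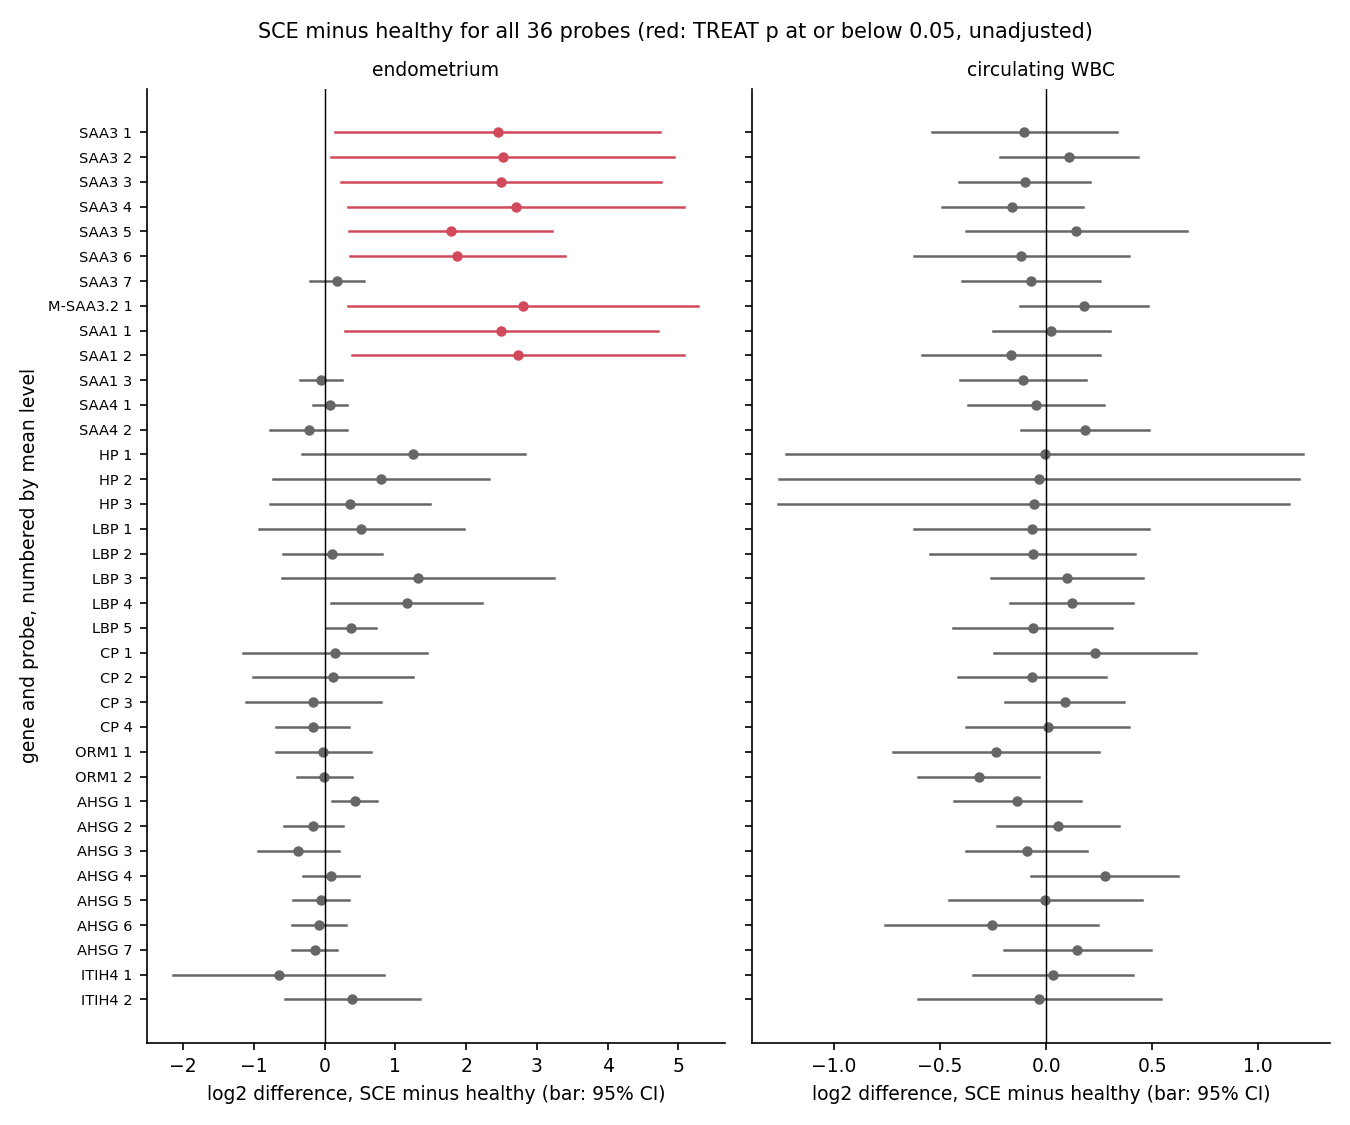
Log2 difference between SCE and healthy cows (x axis) for all 36 member probes (y axis, numbered within each gene by mean level), in endometrium and in circulating WBC. Bars are 95% confidence intervals, and red marks an unadjusted TREAT p at or below 0.05, which 9 serum amyloid A probes have in endometrium and none has in WBC.

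Other genes of the acute phase response were taken from lists, with 1 probe a gene. Of 32 further acute phase plasma proteins, C3 alone passed unadjusted TREAT in SCE endometrium, against 0.497% of all genes, and none passed after adjustment, against 0% of all genes. C3, the central component of complement, read 13.13, 12.79, 12.02 and 11.48 in SCE cows and 10.996, 11.33, 11.14 and 11.27 in healthy cows. The groups did not overlap, and the difference was 1.17 (standard error 0.34, unadjusted TREAT p of 0.0144, adjusted TREAT p of 1 in limma). The differences of 25 of the 32 genes were above 0, with a median of 0.15. In WBC, C3 was higher in SCE cows by 0.69 (unadjusted TREAT p of 0.0263) and SERPING1, the inhibitor of the first complement component, was lower by -0.72 (unadjusted TREAT p of 0.0101), where 0.121% of all genes passed unadjusted and 0% after adjustment, and the median over the list was -0.04.

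Among 24 cytokines, receptors and transcription factors that induce acute phase genes, HNF4A, a transcription factor of hepatocytes, passed unadjusted TREAT in SCE endometrium and no other did, where 0.497% of all genes passed. It read 8.58, 8.02, 9.61 and 7.86 in SCE cows and 7.54, 7.74, 6.31 and 6.89 in healthy cows, a difference of 1.396 (standard error 0.45, unadjusted TREAT p of 0.0195, adjusted TREAT p of 1 in limma), and the list had a median of 0.13. Healthy cow 883, at 6.89, was among the low cows for HNF4A and for C3, unlike its place for serum amyloid A. Between tissues in healthy cows, 3 genes of this list were higher and 7 lower in endometrium by adjusted TREAT, where 48.5% of all genes were called, 20.8% higher and 27.7% lower. OSMR, the oncostatin M receptor, was higher by 3.08, whereas TNF and IL1B were lower by -3.17 and -2.74 (adjusted p of 6.26e-07, 2.75e-06 and 2.33e-06). In SCE cows the counts were 3 and 8, against 46.4% of all genes, 20.8% higher and 25.6% lower. The list medians were -0.37 in healthy cows and -0.24 in SCE cows.

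Of 10 receptors and partners of acute phase proteins, none passed unadjusted TREAT between SCE and healthy cows in either tissue in limma, and none passed adjusted. Of all genes 0.497% passed unadjusted in endometrium and 0.121% in WBC, and 0% adjusted, so a count of 0 in 10 lies near that share. Between tissues, LY96, a partner of the lipopolysaccharide receptor that LBP serves, was higher in the endometrium of healthy cows by 2.58, and CD163, the receptor that takes up haptoglobin bound to hemoglobin, was lower by -2.38 (adjusted TREAT p of 6.6e-05 and 1.48e-05). For the plasma proteins the tissue counts were 5 higher and 7 lower in healthy cows and 7 higher and 5 lower in SCE cows, of 32 genes in all, against 48.5% and 46.4% of all genes called. RBP4, the carrier of retinol, and FN1, fibronectin, differed most, by 8.38 and 7.68 in healthy cows. Of 11 hepatocyte markers, 5 were well above background on all 8 endometrium arrays. The defining marker ALB, albumin, read 5.63 to 6.16 in endometrium, and FGA, a fibrinogen chain, and APOB were well above background on no endometrium array. Others of the list were high there. The apolipoproteins APOA1 and APOA2 read 12.84 to 14.44 and 12.59 to 13.70 in endometrium, and TTR, transthyretin, 7.15 to 11.75. No hepatocyte marker passed unadjusted TREAT between SCE and healthy endometrium, where 0.497% of all genes did.

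The genes whose levels followed SAA3 probe 1 most closely over the 8 endometrium arrays, by Pearson's r among 19206 genes, were TC432931 (0.97), MAP1LC3B (0.96), DT825705 (0.95), LOC518437 (0.94) and WIPF3 (0.94). Spearman's rho was 0.95, 0.88, 0.95, 1 and 0.98, respectively, and without cows 850 and 841, which had the values farthest from the median of SAA3, r was 0.96, 0.86, 0.95, 0.85 and 0.94. Cow 883 had the highest or second highest level of all 5. WIPF3, a member of the WASP-interacting protein family, read 7.36, 7.29, 8.87 and 7.28 in SCE cows and 6.23, 6.06, 6.49 and 8.27 in healthy cows. None of the 5 passed unadjusted TREAT between SCE and healthy endometrium, with p of 0.0912 to 0.533, and the values are a description of the closest of many genes on 8 arrays.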

How the data were processed

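RNA from 16 samples (8 endometrial biopsies and 8 PAXgene blood samples of the same 8 cows) had been labelled with cyanine 3 and hybridised to one-colour Agilent bovine arrays. The authors deposited the intensity of each spot as extracted with Agilent Feature Extraction 10.10.1.1, without normalization, with its background and quality marks, and a table of quantile-normalized intensities. Quantile normalization of all deposited median intensities differed from that table by a median of 0.0415% and at most 2.54%. Groups were taken from the sample labels.

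Of 54008 spots per array, 1319 control spots were removed, and so were 190 to 465 outlier spots per array. Median signals were not background-corrected, were quantile-normalized over 16 arrays as log2 values, and spots of 1 probe were averaged. No member value was imputed or dropped. SCE was compared with healthy in each tissue separately (8 arrays), and tissues and the difference of effects in 1 model of the 4 groups (16 arrays), with limma 3.58.1 in R 4.3.3: TREAT at 1.2-fold, Benjamini-Hochberg adjustment over all probes, threshold 0.05. Unadjusted p was used for status, where no probe of any gene passed adjusted, and adjusted p for tissues. Single probes were also tested by the two-sided exact permutation test over cows.

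For a probe not well above background on any array of a group, the fold is a bound against the higher of its own signal and the lowest signal marked well above background. Summed marker levels are the log2 of the summed intensities over a list. Cows named in the text are numbered as in the labels. The endometrium and WBC arrays with 1 cow number are paired by animal, and the deviations from group means of its arrays correlated between -0.328 and 0.142 over 23998 probes. The cow as a block was an alternative, as were the normalization, the signal column, background correction, the authors' table, a filter, no fold threshold, the mean of a gene's probes, the slide row as a block, all arrays in 1 fit, and leaving out each cow.

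In data simulated for SCE against healthy endometrium (45939 probes, 200 changed by 3 on the log2 scale), 100% of changed probes passed unadjusted and 94.5% adjusted. These shares cannot be carried over to the 9 serum amyloid A probes. Their differences were smaller, 1.78 to 2.81, and their SD among healthy endometria was 1.398 to 2.36. The members and the gene lists were chosen with earlier results of these data known. From the lists, genes past the test and those with the largest differences are named. For likeness to SAA3, the 5 genes with the highest r are named, among genes well above background on at least 4 endometrium arrays.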

Additional observations from a re-analysis of the deposited data

Results flagged for a closer look

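Of 75 groups of 4 arrays examined, over the 29 member probes well above background on at least 1 array, 5 held a sample whose gap to its nearest neighbour took a larger part of the range of the group than Dixon's 95% critical value for 4 samples, where chance gives about 1 in 20. In SCE endometrium, cow 718 read 8.82 on HP probe 2 against 5.77 in the nearest cow (0.97 of the range). Cow 833 accounted for 3 others in the same group. It read 6.999 on LBP probe 2 against 5.68 (0.995), 7.36 on ORM1 probe 1 against 6.55 (0.902), and 9.44 on ITIH4 probe 2 against 7.68 (0.902). In healthy endometrium, cow 883 read 6.77 on HP probe 3 against 5.95 (0.946), the only HP probe of the 3 on which it stood apart. The high serum amyloid A of cow 883 did not meet this criterion, because the other 3 healthy cows were themselves spread.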

How the results depend on the processing

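Counts here are member genes with at least 1 probe past the threshold. Percentages are the share of all probes that passed in the same setting. For SCE against healthy endometrium the count was 3 (0.453%). It was 5 with the processed signal (AHSG and HP added, 0.914%) or with no fold threshold (AHSG and LBP added, 2.01%). It was 4, with LBP added, with slide row as a blocking factor (0.545%), with each tissue normalized separately (0.481%) and with all arrays in 1 fit (1.08%). In WBC the count was 0 (0.122%), 2 with the processed signal (CP and ORM1, 0.521%) and 1 with no fold threshold (ORM1, 1.44%). For the difference of effects it was 3 (0.496%), and 6 with the processed signal (0.889%). The share of all probes thus rose along with these counts. Leaving out each cow gave 0 to 4 genes in endometrium (0.328% to 1.76%), 0 to 0 in WBC (0.114% to 1.45%) and 0 to 3 for the difference of effects (0.363% to 1.71%). For the tissues the counts were 9 in healthy and 7 in SCE cows, with 8 to 10 and 7 to 9 when a cow was left out. With the replicate block, the cow, they were 9 and 7, with 3 for the difference of effects, and the cow as a block changed no call of a member gene. The 9 serum amyloid A probes gave 8 past unadjusted TREAT under normexp background correction and 9 under every other setting that kept all cows and tested single probes. The SCE difference of CP in endometrium turned to -0.014 with the mean of its probes and to -0.36 without cow 833 and -0.22 without cow 883, and ran from -0.36 to 0.45 over the cows left out. That of LBP turned to -0.17 without cow 833 and ran from -0.17 to 0.94, and the tissue difference of AHSG in healthy cows to 0.031 with the mean of its probes. HP in SCE endometrium was 2.91 (unadjusted TREAT p of 0.0333) with the processed signal. The lower call of AHSG in healthy cows was lost without cow 850 (-0.61, adjusted TREAT p of 0.058). The causes were not tested. Signal over background limits HP, SAA4, AHSG, 4 of 5 LBP probes and ORM1 probe 2 in endometrium.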
